A study of Hordeum vulgare with 6 samples.

Results

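The genes described here are those of the deposited barley table whose description names asparaginase, asparagine synthetase, glutamine synthetase, glutamate synthase, nitrate reductase or nitrite reductase. The search found 49 of 40411 genes. It was built around the asparaginase gene HORVU.MOREX.r3.2HG0204250, which was picked because its transcript was higher in the mutant in these same libraries. Its difference between the genotypes is therefore given as a description, without a test, and the other members were also listed with earlier results of these data known.

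E934 is a feed barley variety, labelled wild type, and *msnsd* is a dwarf mutant with more stem nodes and more spikes that was obtained from E934 after treatment with EMS and radioactive cobalt. Young panicles of 0.5 to 1 cm from field-grown plants, taken while glume and then lemma primordia form, were collected from both genotypes for RNA-seq, with 3 biological replicates of each and 6 libraries in all. The *msnsd* material is 1 mutagenised line, so effects of the mapped locus and of other induced mutations cannot be told apart. Ages and the number of plants in a sample are not given in the sources used here, and nothing else was applied to either genotype.

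Plants reduce nitrate to nitrite with nitrate reductase and nitrite to ammonium with nitrite reductase. Glutamine synthetase (GS) binds ammonium to glutamate to make glutamine, and glutamate synthase (GOGAT) uses glutamine to renew glutamate. Asparagine synthetase moves the amide group of glutamine to aspartate, and the asparagine formed is a main carrier of nitrogen to growing organs, where asparaginase splits it into aspartate and ammonium for reuse.

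Values are TPM, a relative transcript abundance, which adjust for transcript length and scale each library to the same total, so levels can be compared between genes but the read depth of a library is unknown. Summed TPM ran from 999915.6 to 999936.5 per library, and 33227 to 35537 genes were above 0. Replicate 1 of E934 stood apart from the other E934 libraries on the second principal component, and named members whose libraries overlapped only through it are also given without it. For these members the lack of overlap without it follows from how they were picked, so it is a description and not a separate test. A list of young inflorescence genes (82 MADS-box, knotted, YABBY and squamosa promoter-binding genes, 0 of them at 0 in every library) summed to 2373 to 2477 TPM in E934 and 2330 to 2431 TPM in *msnsd*. A green leaf list (35 genes, 0 of them at 0 throughout) summed to 473 to 659 TPM in E934 and 499 to 766 TPM in *msnsd*, and was lowest in replicate 1 of each genotype. A pollen list (8 genes, 0 at 0 throughout) summed to 64.1 to 78.5 TPM in E934 and 60.1 to 69.9 TPM in *msnsd*. The part of tissue composition in the differences below was not tested, and in whole panicles fewer cells of a type and less RNA per cell cannot be told apart.

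By the wording of their descriptions, 33 members name one of the 6 enzymes. These are 8 asparaginases, 7 asparagine synthetases, 9 glutamine synthetases, 3 glutamate synthases, 4 nitrate reductases and 2 nitrite reductases. The other 16 entered through their wording only. Of the 33, 25 carry a Pfam protein domain, 26 are high-confidence genes and 28 overlap a RefSeq gene of the same Morex V3 assembly. Of the other 16, 4 carry a domain, 5 are high-confidence and 9 overlap a RefSeq gene.

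Genotypes were compared with limma on log2(TPM + 0.1) over the 32968 genes with a mean of at least 0.1 TPM, and 46 of the 49 members passed this filter. The threshold was a log2 fold change of 1.5 or more in either direction together with a Benjamini-Hochberg adjusted p of at most 0.05. The asparaginase chosen for its rise is left out of the counts here, since the choice fixed its side. Of the other 45 members, limma put 0 past the threshold, where the background was 0.0212% of all genes called higher and 0.0273% called lower. A further 4 members had a mean under 0.1 TPM in one genotype and passed the filter only through the other, so they are left out as well, a restriction made after seeing the data. Of the remaining 41, an unadjusted p under 0.05 was found for 5 with a higher and 3 with a lower level in *msnsd*, where the background over genes with both means at or above 0.1 TPM was 5.61% higher and 4.96% lower. Every *msnsd* library lay above every E934 library in 7 of the 41 and below in 3, beside 8.78% and 7.79% of those genes and 8.73% and 7.86% of all genes tested. The median log2 fold change of the 41 was -0.0161, and that of all genes with both means at or above 0.1 TPM was -0.0145. With 3 libraries against 3, an exact two-sided permutation test of a single gene cannot go below p = 0.1, which is its value for each gene whose libraries are said not to overlap. Over all genes tested the shares with an unadjusted p under 0.05 were 5.58% higher and 5.09% lower, and the young inflorescence list had 14 of 74 tested genes higher and 10 lower at that p, with 1 past the threshold, which was lower.

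Summed over its genes, asparaginase came to 56.9, 63.6 and 57.8 TPM in E934 against 89.9, 82.1 and 82.2 TPM in *msnsd*. The lowest *msnsd* sum lay above the highest E934 sum. Nitrate reductase (102 ± 3.79 and 106 ± 3.21 TPM; SD, n = 3), glutamine synthetase (301 ± 18.8 and 285 ± 15.1 TPM) and glutamate synthase (30.0 ± 4.34 and 30.4 ± 3.97 TPM) had E934 and *msnsd* sums that overlapped. The glutamine synthetase sum includes the low-confidence HORVU.MOREX.r3.5HG0470560, at 45.3, 41.9 and 35.6% of it in E934 and 35.5, 30.1 and 28.3% in *msnsd*. That gene has no listed domain and was lower in *msnsd*, and the genes with catalytic domains were not summed apart. Asparagine synthetase summed to 134, 436 and 392 TPM in E934 against 180, 224 and 184 TPM in *msnsd*, so the E934 replicates spanned the *msnsd* range. Nitrite reductase was the lowest step, at 0.25, 0.29 and 0.12 TPM in E934 against 1.17, 0.86 and 0.40 TPM in *msnsd*, and these sums did not overlap. In *msnsd*, HORVU.MOREX.r3.7HG0732750, which was listed at 0 in each E934 library, made up 17.1, 66.3 and 0% of them. The other gene of the step, which carries the domains of the enzyme, overlapped between genotypes. The sums are descriptions, carry no test and include the gene chosen for its rise.

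**Figure D1:**
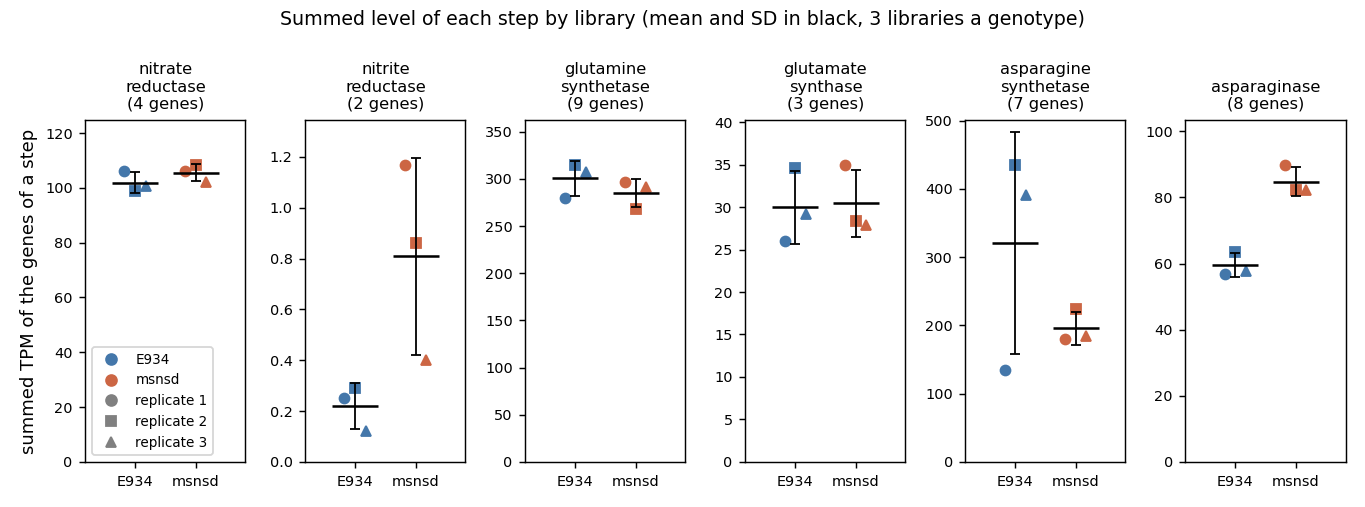
Summed TPM of the genes of each step (vertical axes from 0, a scale for each step) in the 3 E934 and 3 *msnsd* libraries, with the mean and SD in black and the marker giving the replicate. Asparaginase lay at 56.9 to 63.6 TPM in E934 and 82.1 to 89.9 TPM in *msnsd*, whereas the asparagine synthetase sum of E934 replicate 1 (134 TPM) lay below every *msnsd* library.

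The 8 asparaginase members are all described as isoaspartyl peptidase/L-asparaginase, an enzyme class that splits asparagine and also isoaspartyl peptides, and 7 of them carry the asparaginase domain. HORVU.MOREX.r3.2HG0204250 (chromosome 2H, 633576940 to 633579983, Morex V3) measured 1.60, 1.36 and 1.08 TPM in E934 against 11.06, 10.77 and 9.52 TPM in *msnsd*. The *msnsd* libraries were all above the E934 libraries, the log2 fold change was 2.88, and it was 2.29 with a pseudocount of 1. Within its step it ranked 6, 7 and 6 of 8 in the E934 libraries and 5 of 8 in each *msnsd* library.

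The next annotated gene on the chromosome is also an asparaginase, HORVU.MOREX.r3.2HG0204260 (2H, 633686849 to 633689810), with 0 annotated genes and 106865 bp between them. It measured 10.54, 4.63 and 3.93 TPM in E934 against 24.26, 19.93 and 23.91 TPM in *msnsd*. All *msnsd* libraries were above the E934 libraries, and among the latter replicate 1 was the highest. The log2 fold change was 1.95 ± 0.35 (limma SE; 95% interval 1.13 to 2.77) with a limma adjusted p of 0.122, which is not past the threshold. Leaving out E934 replicate 1, the E934 library nearest to *msnsd*, gave a log2 fold change of 2.38 and a limma adjusted p of 0.0318. These values are past the threshold, but removing that library could only widen the difference, so this is a description and not a separate test. With any other library left out, the limma adjusted p was 0.252 to 0.396, which is not past it. Over all the alternatives the limma adjusted p ran from 0.0318 to 0.396. In the *msnsd* libraries this gene ranked 1 of 8 asparaginases, and in E934 it ranked 3, 5 and 5. Salmon divides reads between similar transcripts by estimate, and how alike the sequences of the pair are was not analysed here. The paper used a count model on these libraries with the same fold and adjusted p limits. Both genes of the pair are among its differentially expressed transcripts, listed under asparaginase activity.

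Together the pair made up 21.4, 9.42 and 8.67% of asparaginase TPM in the E934 libraries and 39.3, 37.4 and 40.7% in the *msnsd* libraries. The other 6 members summed to 44.7, 57.6 and 52.8 TPM in E934 against 54.6, 51.4 and 48.8 TPM in *msnsd*, which overlap. Within the pair, HORVU.MOREX.r3.2HG0204260 was the more abundant in every library, by 6.587, 3.404 and 3.639 times in E934 and 2.193, 1.851 and 2.512 times in *msnsd*.

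**Figure D2:**
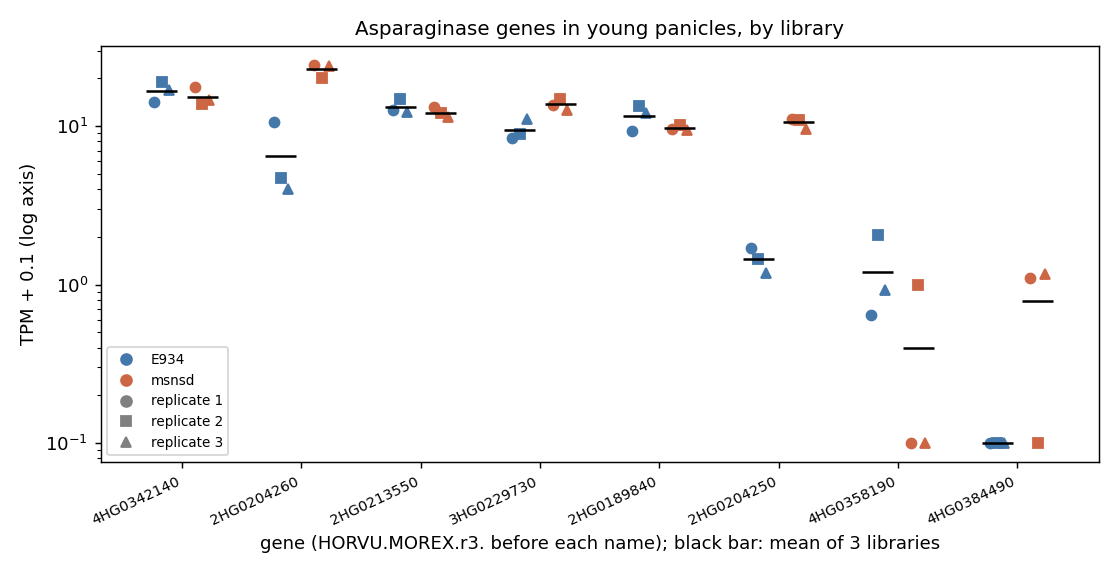
TPM + 0.1 on a log axis of the 8 asparaginase genes in each library, ordered by mean level, with black bars at the mean of the 3 libraries of a genotype. HORVU.MOREX.r3.2HG0204250 moved from 1.08 to 1.60 TPM in E934 to 9.52 to 11.06 TPM in *msnsd*, and HORVU.MOREX.r3.2HG0204260 from 3.93 to 10.54 TPM to 19.93 to 24.26 TPM, whereas 3 of the abundant genes overlapped.

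HORVU.MOREX.r3.3HG0229730 (3H, 21697179 to 21699052) measured 8.36, 8.79 and 11.06 TPM in E934 against 13.53, 14.73 and 12.57 TPM in *msnsd*. Its libraries did not overlap either, but the difference was smaller, with a log2 fold change of 0.54 ± 0.14 (limma SE) and a limma adjusted p of 0.258. The RefSeq gene that overlaps it is not protein-coding. HORVU.MOREX.r3.4HG0342140 (4H, 38530635 to 38532165), a low-confidence gene, measured 14.13, 18.82 and 16.72 TPM in E934 against 17.54, 13.79 and 14.48 TPM in *msnsd*. HORVU.MOREX.r3.2HG0213550 (2H, 654351558 to 654355999) measured 12.45, 14.67 and 12.20 TPM in E934 against 13.01, 11.93 and 11.31 TPM in *msnsd*. HORVU.MOREX.r3.2HG0189840 (2H, 596902009 to 596907441) measured 9.24, 13.36 and 11.99 TPM in E934 against 9.51, 10.10 and 9.38 TPM in *msnsd*. The libraries of these last 3 genes overlapped, and their 95% intervals of the log2 fold change were -0.46 to 0.23, -0.39 to 0.16 and -0.60 to 0.12. Without E934 replicate 1, the *msnsd* libraries of HORVU.MOREX.r3.2HG0189840 all lay below E934, with a log2 fold change of -0.39 and a limma adjusted p of 0.196 (unadjusted p = 0.013).

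The remaining pair of asparaginase genes was scarce and short, and neither overlaps a RefSeq gene. HORVU.MOREX.r3.4HG0358190 (4H, 158428458 to 158428949) measured 0.54, 1.95 and 0.83 TPM in E934 against 0, 0.89 and 0 TPM in *msnsd*. HORVU.MOREX.r3.4HG0384490 (4H, 449188255 to 449188779) was listed at 0 in each E934 library and at 1.00, 0 and 1.06 TPM in *msnsd*, and passed the filter only through *msnsd*. The first had a limma adjusted p of 0.466, with an unadjusted p just under 0.05 that 9 of 13 alternatives moved above it. For the second no test is given.

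Of the genes around the asparaginase pair, 5 on either side were examined. On one side 3 genes were below the filter and the other 2 had log2 fold changes of -0.25 and -0.00045. On the other side the values ran from -0.25 to 0.51. The gene next to the pair there, HORVU.MOREX.r3.2HG0204270, annotated as a small RNA degrading nuclease (2H, 633707907 to 633710839), measured 12.23, 5.46 and 5.56 TPM in E934 against 11.04, 7.93 and 8.73 TPM in *msnsd*. Like HORVU.MOREX.r3.2HG0204260 it was highest among E934 in replicate 1, but its genotypes overlapped. In HORVU.MOREX.r3.2HG0204320, annotated as cofactor assembly of complex C, all *msnsd* libraries (5.11, 5.21 and 4.88 TPM) lay below E934 (6.87, 5.22 and 6.16 TPM), with a limma adjusted p of 0.579. The highest log2 fold change belongs to the outermost, HORVU.MOREX.r3.2HG0204350, annotated as glycosyltransferases (2H, 633929275 to 633933287), which measured 17.61, 18.67 and 17.50 TPM in E934 against 25.36, 25.47 and 25.74 TPM in *msnsd*. These libraries did not overlap, and the limma adjusted p was 0.0955.

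**Figure D3:**
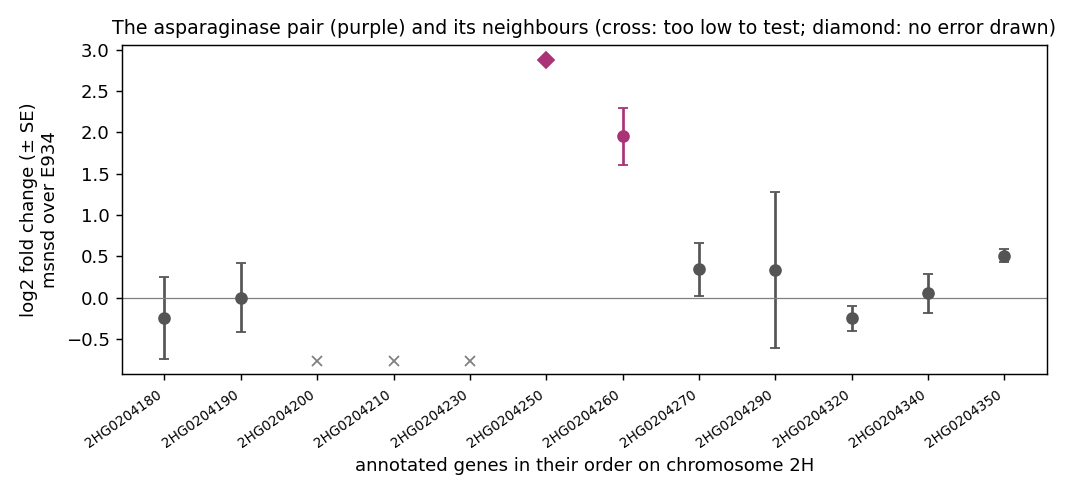
Log2 fold change of *msnsd* over E934 (vertical axis, bars ± limma standard error) of the asparaginase pair and 5 annotated genes on either side, in chromosome order. The pair stood at 2.88 (diamond, drawn without an error because the gene was chosen for this value) and 1.95, and the tested neighbours between -0.25 and 0.51. Crosses mark the 3 genes too low to test.

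Asparagine synthetase makes the asparagine that asparaginase breaks down. All 7 members were tested, and their log2 fold changes ran from -0.59 to -0.02. None had an unadjusted p under 0.05 (0 of 7 in limma), beside 5.58% higher and 5.09% lower of all genes. HORVU.MOREX.r3.5HG0465890 (5H, 333372033 to 333375401) had the highest mean of all 49 members, at 79.34, 382.79 and 337.14 TPM in E934 against 129.08, 172.69 and 135.38 TPM in *msnsd*. It held 59.1, 87.9 and 86.1% of the TPM of its step in E934 and 71.6, 77.2 and 73.6% in *msnsd*. E934 replicate 1 was the lowest of all 6 libraries and the other E934 replicates were the highest, so the groups overlapped. The log2 fold change was -0.59 ± 0.56 (limma SE; 95% interval -1.91 to 0.74, limma adjusted p = 0.726). Without E934 replicate 1 the *msnsd* libraries all lay below E934, with a log2 fold change of -1.31 ± 0.14 (limma SE) and a limma adjusted p of 0.0505. Neither the fold change nor the adjusted p reached its limit there, and the limma adjusted p was 0.0505 to 0.95 over the alternatives. The log2 fold change was -0.18 without E934 replicate 2 and -0.27 without E934 replicate 3.

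In E934 replicate 1, the library with the lowest value of HORVU.MOREX.r3.5HG0465890, HORVU.MOREX.r3.2HG0204260 was at its highest E934 value of 10.54 TPM. In both genes this library lay on the *msnsd* side of the other E934 replicates. HORVU.MOREX.r3.2HG0204250 was also highest in this library among E934, but at 1.60 TPM it remained far below the *msnsd* libraries.

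The other asparagine synthetases were at lower levels in every library. HORVU.MOREX.r3.1HG0085120 (1H, 495322785 to 495329045) measured 23.76, 22.38 and 24.05 TPM in E934 against 22.49, 23.59 and 21.00 TPM in *msnsd*. HORVU.MOREX.r3.1HG0092430 (1H, 508981549 to 508987526) measured 16.25, 14.89 and 15.17 TPM in E934 against 15.53, 14.08 and 16.23 TPM in *msnsd*. Both overlapped between genotypes, with 95% intervals of the log2 fold change from -0.27 to 0.14 and from -0.25 to 0.22. HORVU.MOREX.r3.5HG0441010 (5H, 84771080 to 84776672) measured 11.80, 12.23 and 12.64 TPM in E934 against 10.59, 11.01 and 9.62 TPM in *msnsd*. Here the libraries did not overlap, with a log2 fold change of -0.23 ± 0.10 (limma SE; adjusted p = 0.483). The low-confidence HORVU.MOREX.r3.5HG0443740 (5H, 107856119 to 107856607) measured 1.91, 1.56 and 1.68 TPM in E934 against 1.32, 1.80 and 0.84 TPM in *msnsd*. The remaining members, HORVU.MOREX.r3.3HG0231180 and HORVU.MOREX.r3.4HG0384790, had means of at most 1.16 TPM in either genotype, and their libraries overlapped.

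Nitrate reductase, the entry step for nitrate, had 4 members of differing build. A plant nitrate reductase carries a molybdenum-cofactor part, a cytochrome b5 part and FAD- and NAD-binding parts, and 2 members carry all of these domains. HORVU.MOREX.r3.6HG0618720 (6H, 521193566 to 521196900) measured 0.43, 0.50 and 0.37 TPM in E934 against 2.79, 1.33 and 3.05 TPM in *msnsd*. All *msnsd* libraries were above E934, but they differed among themselves. The log2 fold change was 2.15 ± 0.38 (limma SE; 95% interval 1.25 to 3.04), and the limma adjusted p of 0.122 was not past the threshold. A pseudocount of 1 in place of 0.1 reduced it to 1.20.

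The other complete nitrate reductase, HORVU.MOREX.r3.6HG0541410 (6H, 8366906 to 8371779), measured 0.69, 1.01 and 0.99 TPM in E934 against 1.02, 0.90 and 1.17 TPM in *msnsd*, with a 95% interval of the log2 fold change from -0.51 to 0.89. The order of the genes was the reverse in the genotypes. HORVU.MOREX.r3.6HG0618720 had 0.623, 0.495 and 0.374 times the TPM of HORVU.MOREX.r3.6HG0541410 in E934, and 2.73, 1.48 and 2.61 times in *msnsd*.

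Most TPM under the name came from a pair of genes without the full set of these domains. HORVU.MOREX.r3.3HG0218430, described as nitrate reductase [NADPH] (3H, 1105777 to 1106700), has no listed domain and measured 68.49, 54.71 and 54.58 TPM in E934 against 59.12, 63.54 and 56.17 TPM in *msnsd*. HORVU.MOREX.r3.7HG0683860 (7H, 203695933 to 203701559) carries only the molybdenum-cofactor domains, the build known from plant sulfite oxidase, and measured 36.61, 42.78 and 44.65 TPM in E934 against 43.09, 42.72 and 41.74 TPM in *msnsd*. Both overlapped between genotypes, with 95% intervals of -0.24 to 0.27 and -0.17 to 0.26 on the log2 scale. Without E934 replicate 1 the *msnsd* libraries of HORVU.MOREX.r3.3HG0218430 all lay above E934, with a log2 fold change of 0.12 (limma adjusted p = 0.497). The complete enzymes stayed between 0.37 and 3.05 TPM, so the sum of the step is almost wholly that of the other 2 genes.

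Nitrite reductase, which makes ammonium in the plastid, was represented by HORVU.MOREX.r3.6HG0619730 (6H, 524893159 to 524896357), the member with the nitrite and sulfite reductase domains. It measured 0.25, 0.29 and 0.12 TPM in E934 against 0.97, 0.29 and 0.40 TPM in *msnsd*. Replicate 1 of *msnsd* was the highest, replicate 3 lay above the E934 range and replicate 2 equalled its top, with a log2 fold change of 0.93 ± 0.53 (limma SE; adjusted p = 0.551). The low-confidence HORVU.MOREX.r3.7HG0732750 was listed at 0 in each E934 library and at 0.20, 0.57 and 0 TPM in *msnsd*.

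**Figure D4:**
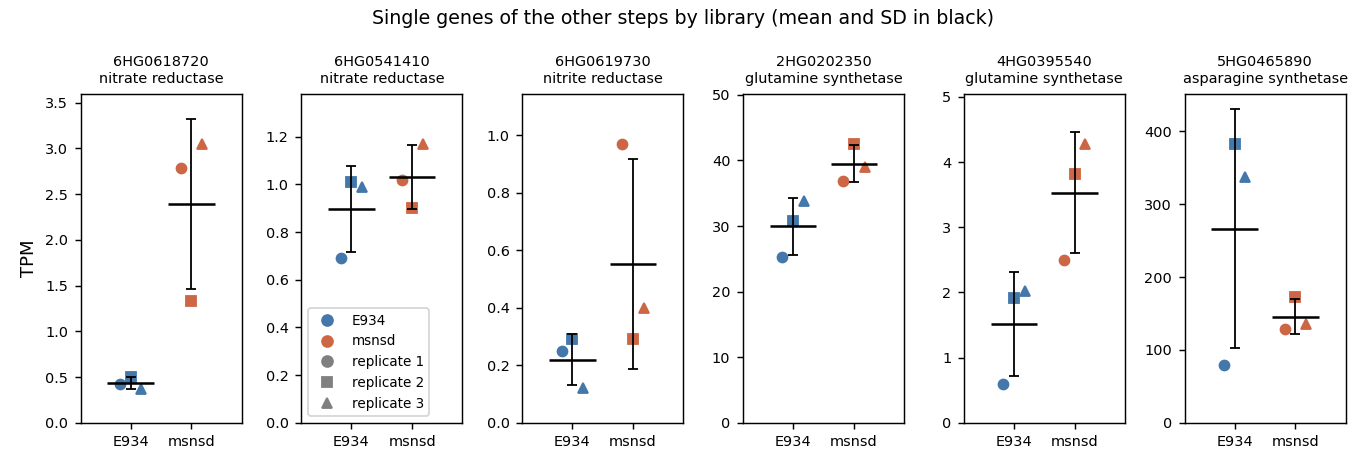
TPM of 6 genes of the other steps in each library (vertical axes from 0, a scale for each gene), with the mean and SD in black. The nitrate reductase HORVU.MOREX.r3.6HG0618720 lay at 0.37 to 0.50 TPM in E934 and 1.33 to 3.05 TPM in *msnsd*, and the asparagine synthetase HORVU.MOREX.r3.5HG0465890 at 79.34 TPM in E934 replicate 1 against 337.14 and 382.79 TPM in the others.

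Glutamine synthetase captures the ammonium that nitrite reductase and asparaginase release. All 9 members were tested, and an unadjusted p under 0.05 was found for 2 with a higher and 1 with a lower level in *msnsd* (5.58% and 5.09% of all genes), with 0 past the limma threshold. HORVU.MOREX.r3.2HG0202350 (2H, 628902919 to 628906895) measured 25.31, 30.75 and 33.74 TPM in E934 against 36.90, 42.54 and 39.02 TPM in *msnsd*. The libraries did not overlap, and the log2 fold change was 0.41 ± 0.12 (limma SE; adjusted p = 0.322). HORVU.MOREX.r3.4HG0395540 (4H, 526911523 to 526915057) measured 0.60, 1.92 and 2.02 TPM in E934 against 2.49, 3.82 and 4.28 TPM in *msnsd*. These did not overlap either, and the log2 fold change was 1.30 ± 0.47 (limma SE; adjusted p = 0.398), or 0.78 without E934 replicate 1, the lowest library.

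HORVU.MOREX.r3.6HG0613270 (6H, 495214923 to 495218750), the glutamine synthetase with the highest mean among those with catalytic domains, measured 63.98, 69.12 and 78.93 TPM in E934 against 85.23, 70.81 and 87.61 TPM in *msnsd*. HORVU.MOREX.r3.1HG0039730 (1H, 250199046 to 250202806) measured 16.87, 27.83 and 26.16 TPM in E934 against 22.64, 26.34 and 23.99 TPM in *msnsd*. HORVU.MOREX.r3.4HG0337240 (4H, 17745839 to 17748824) measured 9.85, 9.89 and 9.29 TPM in E934 against 9.20, 7.99 and 10.84 TPM in *msnsd*. All of these overlapped, with 95% intervals of -0.07 to 0.47, -0.38 to 0.53 and -0.39 to 0.27 on the log2 scale. HORVU.MOREX.r3.6HG0549370 (6H, 24323719 to 24337124) joins the catalytic domain to an amidohydrolase domain and measured 1.66, 3.04 and 2.13 TPM in E934 against 3.52, 2.57 and 2.78 TPM in *msnsd*, which also overlapped.

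The other 3 genes described as glutamine synthetase span at most 501 bp and carry no listed domain. The low-confidence HORVU.MOREX.r3.5HG0470560 (5H, 368477348 to 368477731) had the highest mean of the step, at 126.46, 131.94 and 109.34 TPM in E934 against 105.30, 80.65 and 82.56 TPM in *msnsd*. Its *msnsd* libraries all lay below E934, with a log2 fold change of -0.46 ± 0.13 (limma SE; adjusted p = 0.282). The RefSeq gene that overlaps this one is not protein-coding. HORVU.MOREX.r3.6HG0616420 (6H, 512205031 to 512205519) measured 33.34, 38.53 and 43.26 TPM in E934 against 29.45, 31.72 and 38.76 TPM in *msnsd*. HORVU.MOREX.r3.7HG0660770 (7H, 64972777 to 64973277) measured 1.25, 2.10 and 2.27 TPM in E934 against 1.60, 1.56 and 1.49 TPM in *msnsd*, and both of these overlapped. Without E934 replicate 1 the *msnsd* libraries of HORVU.MOREX.r3.7HG0660770 lay below E934, and its log2 fold change went from -0.22 to -0.47 (limma adjusted p = 0.409).

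Glutamate synthase closes the cycle with glutamine synthetase, in a ferredoxin-dependent and an NADH-dependent form. HORVU.MOREX.r3.2HG0117030 (2H, 56820717 to 56837695) lacks the NADH-side domains and measured 13.24, 14.60 and 12.62 TPM in E934 against 13.40, 13.47 and 12.65 TPM in *msnsd*. HORVU.MOREX.r3.3HG0280530 (3H, 434837506 to 434847673) carries the domains of the NADH-dependent build and measured 12.81, 13.26 and 9.02 TPM in E934 against 12.19, 8.70 and 9.96 TPM in *msnsd*. Both overlapped between genotypes, with 95% intervals of the log2 fold change from -0.27 to 0.21 and from -0.63 to 0.28. The low-confidence HORVU.MOREX.r3.7HG0691360 (7H, 273553670 to 273553873), 204 bp long, measured 0, 6.77 and 7.57 TPM in E934 against 9.41, 6.25 and 5.25 TPM in *msnsd*. Its log2 fold change of 1.98 rested on the 0 of E934 replicate 1, and was -0.08 without that library.

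**Figure D5:**
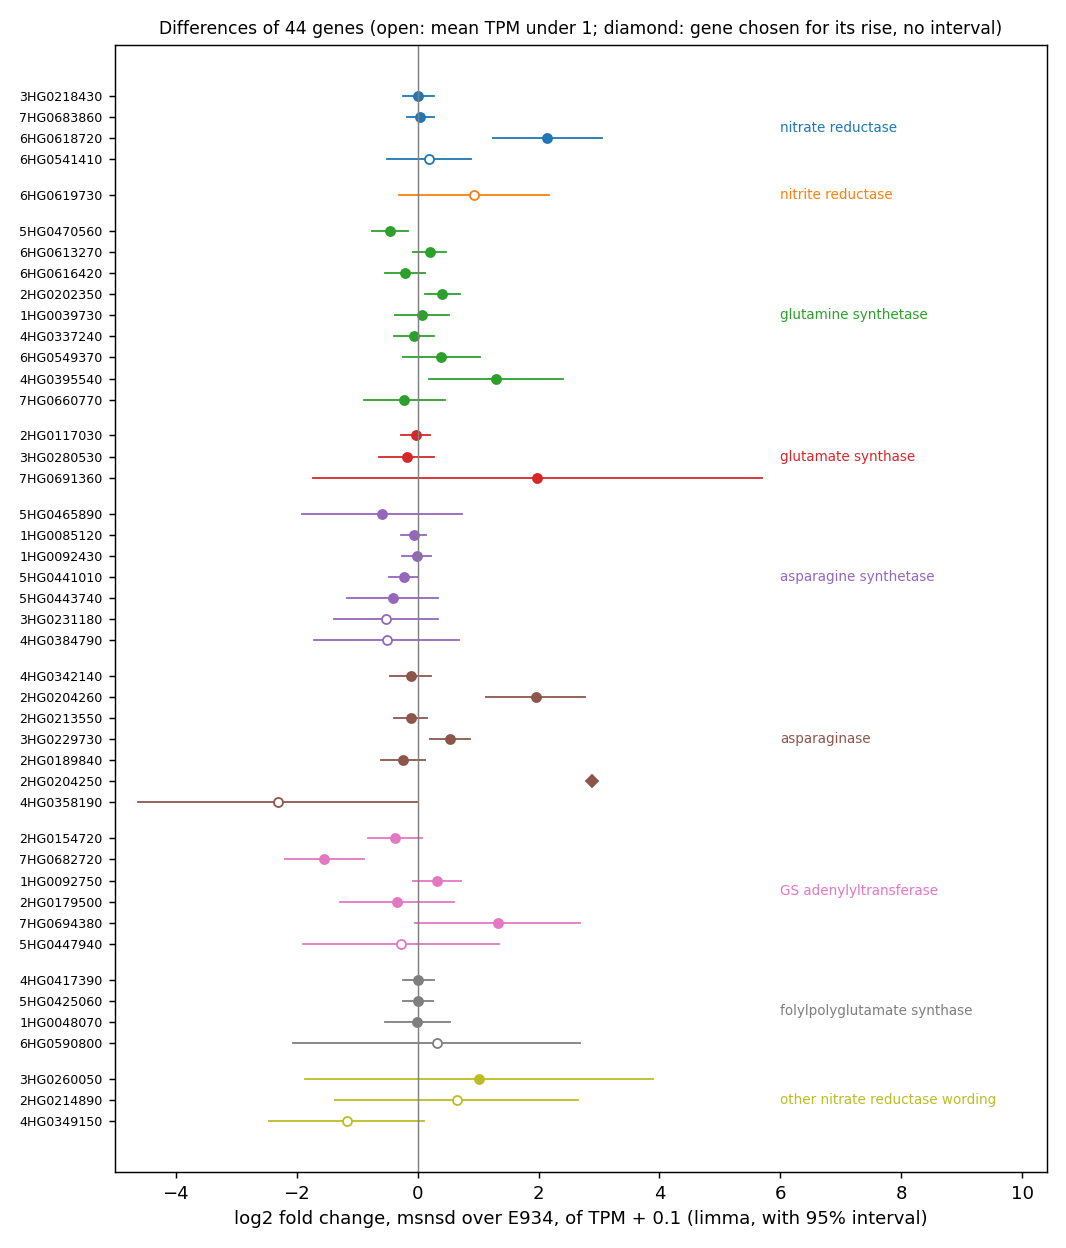
Log2 fold change of *msnsd* over E934 (TPM + 0.1) with its 95% limma interval, for 44 of the 46 members tested, grouped by step and ordered by level. The diamond is HORVU.MOREX.r3.2HG0204250, chosen for its value of 2.88 and drawn without an interval, and the 2 genes listed at 0 in every E934 library were left out. Intervals away from 0 include those of HORVU.MOREX.r3.2HG0204260 (1.13 to 2.77) and HORVU.MOREX.r3.6HG0618720 (1.25 to 3.04), while every asparagine synthetase interval included 0.

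The 16 genes that entered by wording were 8 named after the bacterial enzyme that attaches adenylyl groups to glutamine synthetase, 4 folylpolyglutamate synthases, which lengthen the tail of folate, and 4 other nitrate reductase wordings. Among the adenylyltransferase names, 7 of 8 are low-confidence genes and none carries a domain (0 of 8). HORVU.MOREX.r3.7HG0682720 (7H, 194400078 to 194400326) measured 9.37, 16.69 and 15.69 TPM in E934 against 3.63, 6.06 and 4.31 TPM in *msnsd*. The *msnsd* libraries were all lower, and the log2 fold change was -1.54 ± 0.28 (limma SE; adjusted p = 0.123). It spans 249 bp and the RefSeq gene that overlaps it is not protein-coding. HORVU.MOREX.r3.7HG0694380 (7H, 312968923 to 312969396) measured 1.07, 0.18 and 0.90 TPM in E934 against 2.04, 1.19 and 1.76 TPM in *msnsd*, and HORVU.MOREX.r3.1HG0092750 (1H, 509596183 to 509597274) measured 4.36, 5.86 and 5.79 TPM against 6.73, 5.98 and 7.28 TPM. The libraries of these last genes did not overlap, with limma adjusted p of 0.476 and 0.526. Without E934 replicate 1, its highest E934 library, the first had an unadjusted limma p of 0.030 (limma adjusted p = 0.27). Removing that library could only widen the difference, so this is a description and not a separate test. HORVU.MOREX.r3.2HG0154720 (2H, 369828379 to 369828715) measured 41.63, 50.56 and 30.44 TPM in E934 against 35.17, 27.79 and 30.58 TPM in *msnsd*. HORVU.MOREX.r3.2HG0179500 (2H, 548718234 to 548718719) measured 0.92, 1.24 and 2.34 TPM in E934 against 1.47, 0.89 and 0.96 TPM in *msnsd*, and both of these overlapped. The other 3 genes of this name had means under 1 TPM in both genotypes.

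Folylpolyglutamate synthases belong to folate metabolism, not to nitrogen assimilation. HORVU.MOREX.r3.4HG0417390 (4H, 606454718 to 606459643) measured 31.05, 24.77 and 24.73 TPM in E934 against 27.10, 27.36 and 26.36 TPM in *msnsd*. HORVU.MOREX.r3.5HG0425060 (5H, 10977394 to 10981466) measured 17.90, 16.18 and 14.97 TPM against 17.32, 15.79 and 16.18 TPM. HORVU.MOREX.r3.1HG0048070 (1H, 315560637 to 315566198) measured 5.83, 4.27 and 3.22 TPM against 4.28, 4.44 and 4.19 TPM. All 3 overlapped, with log2 fold changes from -0.0041 to 0.01. Without E934 replicate 1 the *msnsd* libraries of HORVU.MOREX.r3.4HG0417390 all lay above E934, with a log2 fold change of 0.12 (limma adjusted p = 0.49), and the fourth had a mean under 1 TPM. Of the other nitrate reductase wordings, HORVU.MOREX.r3.3HG0260050, described as periplasmic nitrate reductase (3H, 239095314 to 239095616), measured 0, 0.84 and 2.11 TPM in E934 against 3.11, 0.33 and 1.14 TPM in *msnsd*, which overlap. Its log2 fold change was 1.01, and -0.27 without E934 replicate 1. The other 3 had means under 1 TPM in both genotypes.

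Further genes of nitrogen transport, metabolism and regulation were taken by description. The pattern for regulators also matched unrelated names such as thionin-like, and the totals here include them. Of these 248 genes 206 were tested, limma put 0 of them past the threshold, and the unadjusted p was under 0.05 for 12 that were higher and 16 that were lower in *msnsd*, beside the background shares of 5.58% and 5.09%. Their median log2 fold change was 0.0027. Nitrate transport (32 tested) had 3 higher and 3 lower. The smallest p among them was that of HORVU.MOREX.r3.7HG0670510, an NRT1/PTR family gene (7H, 114958506 to 114962109), at 17.93, 18.48 and 18.66 TPM in E934 against 23.77, 22.19 and 22.15 TPM in *msnsd*. Its libraries did not overlap, and the limma adjusted p was 0.269.

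Aspartate aminotransferase, which exchanges amino groups between aspartate and glutamate, had 1 gene higher and 4 lower of 12 tested at an unadjusted p under 0.05, beside 5.58% and 5.09% of all genes. HORVU.MOREX.r3.3HG0253680 (3H, 174895144 to 174895494), a low-confidence gene, measured 3.49, 5.06 and 4.53 TPM in E934 against 1.71, 1.62 and 1.89 TPM in *msnsd*. All *msnsd* libraries lay below E934, with a log2 fold change of -1.26 ± 0.21 (limma SE; adjusted p = 0.103). The glutamine dumpers, membrane proteins known in Arabidopsis to promote amino acid export, had 1 higher of 9. This was HORVU.MOREX.r3.7HG0722830 (7H, 544771980 to 544772345), at 1.65, 0.66 and 0.42 TPM in E934 against 3.08, 4.15 and 9.79 TPM in *msnsd*, which did not overlap (log2 fold change 2.53, limma adjusted p = 0.192).

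Amino acid permeases and transporters (69 tested) had 5 higher and 3 lower, beside 5.58% and 5.09% of all genes. Of these HORVU.MOREX.r3.6HG0622520 (6H, 533706161 to 533711305) measured 31.18, 28.93 and 24.54 TPM in E934 against 37.60, 37.60 and 42.27 TPM in *msnsd*, and its limma adjusted p was 0.208. Urea metabolism (20 tested) had 1 higher and 2 lower. Its smallest p was that of the low-confidence urease accessory gene HORVU.MOREX.r3.6HG0567240 (6H, 107270574 to 107270891), at 1.89, 4.15 and 2.49 TPM in E934 against 0, 0 and 0.75 TPM in *msnsd* and a limma adjusted p of 0.199. The libraries of both genes did not overlap.

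Ammonium transport (5 tested) had 1 lower, the low-confidence HORVU.MOREX.r3.3HG0246310 (3H, 114173759 to 114174313), at 12.41, 15.90 and 6.32 TPM in E934 against 6.62, 5.30 and 5.63 TPM in *msnsd*. Glutamate decarboxylase (6 tested) had 1 higher, HORVU.MOREX.r3.4HG0393690 (4H, 514443419 to 514445661), at 1.17, 4.95 and 1.63 TPM in E934 against 5.92, 3.27 and 9.89 TPM in *msnsd*. The libraries of both overlapped. Glutamate dehydrogenase (5 tested), aspartate kinase (5), alanine aminotransferase (1) and molybdenum cofactor genes (13) had 0 in either direction at an unadjusted p under 0.05 in limma. The counts of these short lists stand beside 5.58% higher and 5.09% lower of all genes, and were not tested against those shares.

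The pattern for nitrogen regulators (29 tested, 0 higher and 3 lower) also matched unrelated names such as thionin-like. Of the 18 tested genes named RWP-RK, the domain of NIN-like nitrate regulators, or nitrogen regulatory protein, a restriction made after seeing the data, the same counts were 0 and 3, beside 5.58% and 5.09% of all genes. The smallest p was that of the low-confidence HORVU.MOREX.r3.7HG0651770 (7H, 33337913 to 33338653), at 0.80, 1.05 and 1.54 TPM in E934 against 0.65, 0.29 and 0.43 TPM in *msnsd*. Its *msnsd* libraries lay below E934, with a limma adjusted p of 0.389.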

How the data were processed

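Clean reads (fastp is named in the submitters' processing notes) were mapped by the authors to the Morex V3 assembly and quantified with Salmon. The authors deposited a TPM value, rounded to hundredths, for each gene in each library, and 0 library columns were left out. The table also holds the authors' own comparison of the genotypes (mean normalized counts, fold changes, test statistics, p- and q-values), which was not used. TPM keep no depth, so precision rests on the 3 replicates of a genotype, and p-values measure the spread between them.

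Genotypes, which were taken from the sample titles, were compared over genes with a mean of at least 0.1 TPM. The values entered limma 3.58.1 (R 4.3.3) as log2(TPM + 0.1), and its moderated fit included an intensity trend. Python 3.11.15, pandas 2.3.3 and matplotlib 3.10.9 were used for the rest. The count model of the paper was not run, because TPM are not counts. Members and lists were chosen with earlier results of these data known. Members with a mean of at least 1 TPM or an unadjusted p under 0.05 are named, with the complete nitrate reductase, the nitrite reductases, 2 scarce asparagine synthetases and 3 neighbours of the asparaginase pair named besides. From each other nitrogen list with such a p, the gene with the smallest is named. Alternatives were other pseudocounts, filters, scalings and thresholds, no trend, a replicate block, leaving out each library, and stricter readings of the descriptions. Gene positions are those of the table, and RefSeq genes of the same assembly were matched by overlap. The grain endosperm list matched 0 genes. Promoter and protein sequences were not analysed here.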

Additional observations from a re-analysis of the deposited data

How the results depend on the processing

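The alternatives gave 516 values of 37 named members. A change of sign was looked for only in members with an unadjusted limma p under 0.05 in the main fit, and 0 of their values changed sign. These members include the chosen gene and HORVU.MOREX.r3.4HG0384490, whose sides were fixed by the choice and by the filter, so their values are no test. Of the 516 values, 21 rose above that p and 8 fell below it. Of the 21, 19 belong to the scarce asparaginases HORVU.MOREX.r3.4HG0358190 and HORVU.MOREX.r3.4HG0384490. The number of members past the threshold and higher in *msnsd*, with the gene chosen for its rise counted, was 1, and ran from 0 to 2 when a library was left out, with 2 without E934 replicate 1 and 0 without any other library. In 4 of these 5 fits 0 genes of the whole table were past it, and the log2 fold change of the chosen gene ran from 2.7404 to 3.0038 whichever library was left out. The number past the threshold and lower was 0 throughout. Because the chosen gene was picked for its rise, its part in these counts is not a test of it. Over all 46 members, 7 were higher and 3 lower at an unadjusted limma p under 0.05, beside 5.58% and 5.09% of all genes tested. The 7 include the chosen gene and HORVU.MOREX.r3.4HG0384490, whose sides were fixed by the choice and by the filter. Leaving out a library gave 6 to 7 higher and 2 to 4 lower, and the members' median log2 fold change of 0.0028 ran from -0.0459 to 0.0174. Restricted to members with a Pfam domain, an alternative chosen after seeing the data, 1 member was lower at that p, not 3. With the 4 members left out that had a mean under 0.1 TPM in one genotype, also chosen after seeing the data, the counts were 6 and 3. The 6 include the chosen gene, and the shares of all genes under that limit were 5.61% and 4.96%.

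With the replicate number as a block, 0 members were past the threshold in either direction and 0 genes in the whole table, where the fit without it had 16. That count was 30 without the trend, 25 with a filter of 1 TPM, and 0 to 22 when a library was left out. Between libraries with the same number, deviations from the mean of the genotype correlated over genes at 0.0239, -0.0717 and 0.0404, so no pairing by number showed in these values. Whether libraries of the same number were collected or handled together is not stated in the sources used here. The limits of these data are the unknown depth, which leaves genes near 0 TPM without an error of their own, and 3 libraries a genotype, of which E934 replicate 1 sets the size of several differences.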
